A study of Mus musculus with 18 samples.

Results

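The genes for the synthesis of serine, asparagine, proline and mitochondrial one-carbon units were followed in NIH-3T3 cells treated with the proteasome inhibitor carfilzomib (CFZ). They were taken by symbol, with no threshold on a measured value, though earlier results of these data were known when the list was made. They are Phgdh, Psat1 and Psph (serine), Asns (asparagine), Shmt1, Shmt2, Mthfd2 and Mthfd1l (one-carbon units), and Aldh18a1 and Pycr1 (proline). All 10 were among the 23420 gene symbols of the count table, and all 10 were among the 11762 genes that passed the expression filter. NIH-3T3 cells are an immortal fibroblast line from the mouse. Wild-type (WT) cells and cells in which Nrf1 was knocked out with CRISPR/Cas9 (Nrf1KO, a single line described earlier) received DMSO as vehicle or CFZ at 200 nM, for 6 h or for 24 h. Each of the 6 groups had 3 biological replicates, and RNA-sequencing of the 18 cultures gave whole read counts per gene. No time is given for the DMSO cultures, so 1 DMSO group per line served both time points. With a single knockout line, the loss of Nrf1 and other differences between the lines cannot be told apart.

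Serine is made from the glycolytic intermediate 3-phosphoglycerate in a chain of reactions by PHGDH, PSAT1 and PSPH. Serine hydroxymethyltransferases, SHMT1 in the cytosol and SHMT2 in mitochondria, pass a carbon of serine to tetrahydrofolate, and MTHFD2 and MTHFD1L carry that unit on to formate, which feeds purine and thymidylate synthesis. ALDH18A1 and PYCR1 make proline from glutamate in mitochondria, and ASNS makes asparagine from aspartate and glutamine. Many of these genes are known targets of ATF4, the transcription factor of the integrated stress response, which is translated when the kinases PERK or GCN2 phosphorylate eIF2alpha and which binds C/EBP-ATF response elements (CAREs). Nrf1 (gene Nfe2l1) is a CNC-bZIP factor that induces proteasome genes when proteasome activity is low.

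The windows around the transcription starts were searched on both strands for TGATGNAA, the core of the CARE elements that ATF4 binds. RefSeq windows on GRCm38.p6, from 250 bases before to 50 bases after a start, were matched for all 10 genes (11 windows, as Psat1 has 2 starts). The core was present in the windows of Asns and Pycr1. Of all 32851 windows, 3.97% held it, and of the 11254 windows of genes tested, 2.26% did. Both windows are shown 5′ to 3′ on the strand of the gene, with the CARE core in capitals, because they are the windows of the 10 genes that held it. Asns lies on the minus strand at chr6:7693160-7693459 and Pycr1 on the minus strand at chr11:120643699-120643998.
Asns: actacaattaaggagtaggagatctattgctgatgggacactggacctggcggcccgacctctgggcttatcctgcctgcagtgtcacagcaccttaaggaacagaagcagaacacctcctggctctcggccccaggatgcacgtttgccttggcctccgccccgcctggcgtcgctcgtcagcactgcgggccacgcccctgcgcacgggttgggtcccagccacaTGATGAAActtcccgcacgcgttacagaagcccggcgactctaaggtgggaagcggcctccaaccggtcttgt
Pycr1: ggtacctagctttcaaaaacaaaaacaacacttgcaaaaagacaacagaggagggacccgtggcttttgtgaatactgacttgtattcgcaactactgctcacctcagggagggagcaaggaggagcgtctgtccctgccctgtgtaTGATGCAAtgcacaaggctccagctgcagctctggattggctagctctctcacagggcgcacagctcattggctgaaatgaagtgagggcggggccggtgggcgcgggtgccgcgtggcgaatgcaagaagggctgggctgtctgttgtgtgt
The match began 23 bases before the start of Asns and 103 bases before that of Pycr1. The antioxidant response element core TGACNNNGC, a class of site bound by CNC-bZIP factors, matched in the windows of Asns, Phgdh and Psph (12.4% of all windows and 14.4% of the windows of genes tested held it). The E-box CACGTG, bound by MYC among others, matched in that of Aldh18a1 (7.15% and 10.0%). These matches describe letters only, and elements outside the windows, such as in introns, were not searched. A link between the matches and the changes with CFZ was not tested.

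Total counts ranged from 8333148 to 23917081 per library (median 14419832), and the 10 genes had between 48 and 18966 counts in a library. Levels are given as TMM-scaled CPM, a library's counts scaled to a common total. The knocked-out gene, Nfe2l1 (the symbol Nrf1 belongs to nuclear respiratory factor, another gene), was lower in the Nrf1KO cells than in the WT cells in each treatment, with 174.3, 184.6 and 181.3 CPM against 456.9, 437.3 and 448.8 CPM in DMSO. It was not absent, and it rose with CFZ in both lines. At 6 h Nfe2l1 averaged 418.8 CPM in Nrf1KO cells and 641.9 CPM in WT cells, beside 447.6 CPM in WT DMSO. At 24 h it averaged 204.4 CPM in Nrf1KO cells and 564.6 CPM in WT cells. All 8 fibroblast markers (Col1a1, Col1a2, Col3a1, Vim, Fn1, Thy1, Pdgfrb and S100a4) were detected in each group. Their summed level fell from between 32800 and 35700 CPM in WT DMSO to between 8090 and 8380 CPM at 24 h, and from between 27400 and 33600 CPM to between 10800 and 12800 CPM in Nrf1KO cells. The epithelial markers Epcam and Krt18 were at 0 in every library, and the whole epithelial list (with Cdh1 and Krt8) summed to between 0.333 and 13.0 CPM. The summed markers of the other cell types ran from 0.12 to 3.83 CPM (endothelial, 3 genes), from 6.26 to 17.4 CPM (leukocyte, 3 genes), from 0.437 to 2.47 CPM (skeletal muscle, 2 genes) and up to 0.118 CPM (adipocyte, 2 genes, with Plin1 at 0). In the Nrf1KO libraries at 24 h the 10 most abundant genes took between 9.28% and 9.57% of counts, against 5.59% to 7.45% elsewhere. Replicates 1 and 3 of these Nrf1KO 24 h libraries stood farthest apart of all replicate pairs, with a chi-square per degree of freedom of 8.47, followed by replicates 1 and 3 of Nrf1KO DMSO at 5.50, and the other pairs lay between 1.44 and 3.54.

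In the WT cells the genes split at 6 h of CFZ and most were lower at 24 h. At 6 h Mthfd2, Psph, Aldh18a1, Shmt2 and Asns were higher than in DMSO, and Pycr1, Psat1, Shmt1 and Phgdh were lower. Of all genes, 35.6% were higher and 36.2% lower there. The calls of Asns and Shmt2 at 6 h depended on the scaling. At 24 h 8 of the 10 were lower than in DMSO (40.5% of all genes). Pycr1 fell by 5.70-fold, Psat1 by 2.52-fold and Phgdh by 2.20-fold. Psph and Shmt1 did not pass the test at 24 h. In the Nrf1KO cells 7 of the 10 stood above DMSO at 6 h (34.5% of all genes). By 24 h 7 were lower than in DMSO (41.1% of all genes), and Psph and Shmt2 were higher (44.4% of all genes). In this line the calls of Phgdh and Pycr1 at 6 h and of Shmt2 at 24 h depended on the scaling. At 24 h the change with CFZ was the more positive in the Nrf1KO cells for all but Shmt1. As RNA was taken from whole cultures, fewer cells with a transcript and less of it per cell cannot be told apart.

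Calls were made by edgeR's quasi-likelihood test at a Benjamini-Hochberg adjusted p under 0.05 over the 11762 genes, without a minimum fold change. Between 18.4% and 44.4% of all genes passed in a given direction in a given comparison, so a call by itself says little and the sizes carry the description. In WT cells at 6 h 5 of the 10 were higher and 4 lower, where 35.6% of all genes were higher and 36.2% lower. In WT cells at 24 h 8 were lower (40.5% of all genes) and none was higher by edgeR, by an unadjusted p under 0.05 or by DESeq2 (43.2% of all genes were higher). From 6 h to 24 h 9 fell and 1 rose in WT cells (35.4% and 36.9% of all genes). In Nrf1KO cells at 6 h 7 were higher by edgeR (34.5% of all genes) and 6 by DESeq2. There 0 were lower by either tool, with 1 lower at an unadjusted p under 0.05 (35.0% of all genes were lower). At 24 h 2 were higher and 7 lower in Nrf1KO cells (44.4% and 41.1% of all genes). From 6 h to 24 h 9 fell in Nrf1KO cells (38.3% of all genes) and 0 rose by either tool or unadjusted (38.7% of all genes). The median log2 difference over the 10 genes was 0.03 at 6 h and -0.78 at 24 h in WT cells and 0.34 and -0.32 in Nrf1KO cells, beside -0.02, 0.02, -0.01 and 0.03 over all genes tested. All comparisons with DMSO in a line share that line's DMSO libraries.

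**Figure D1:**
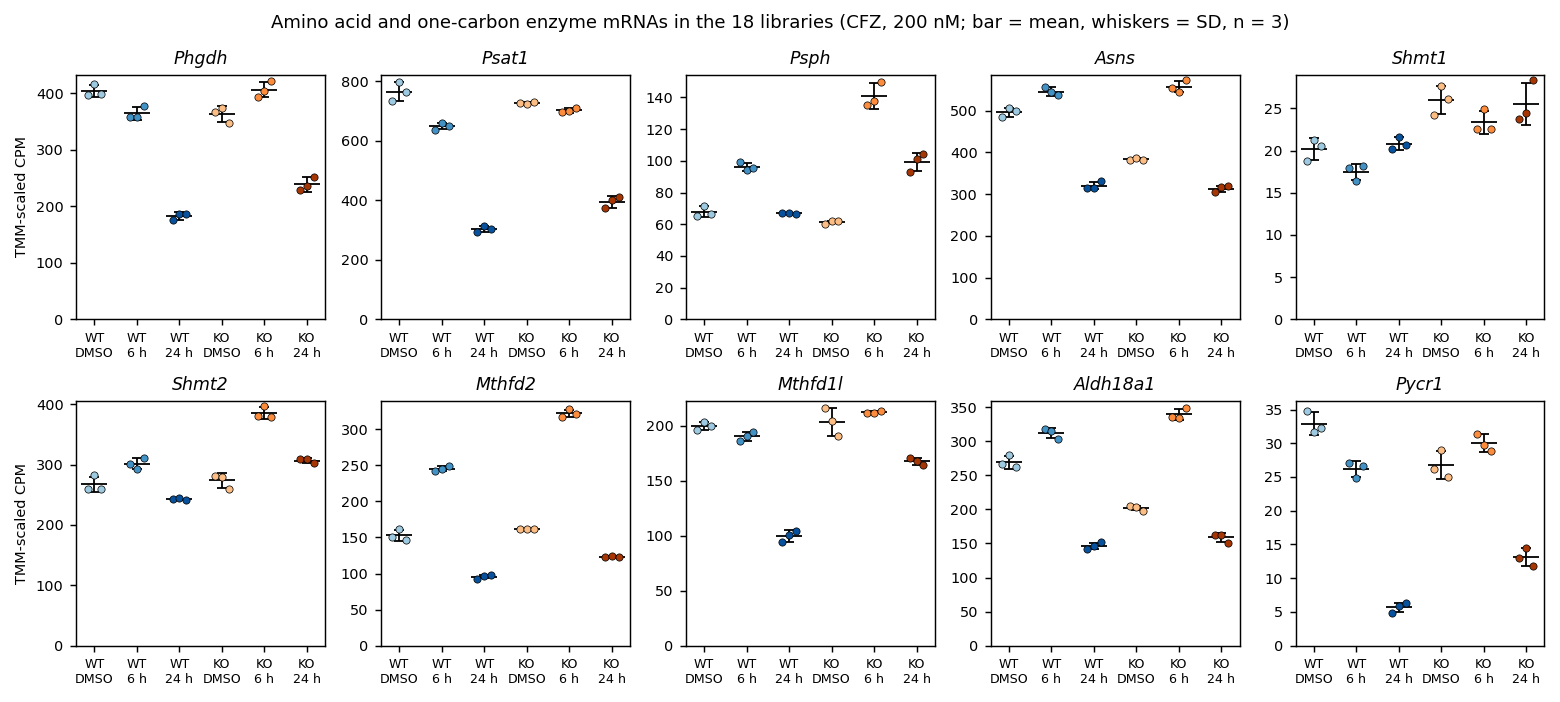
Each panel shows 1 gene as TMM-scaled CPM (linear axis from 0) in the 6 groups; points are the 3 libraries, bars the mean and whiskers the SD. The 3 libraries of Pycr1 at 24 h in WT cells sit between 4.88 and 6.26 CPM, below the 11.86 to 14.48 CPM of the Nrf1KO cells at that time, and Psph and Shmt2 are highest in Nrf1KO cells at 6 h.

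The serine chain did not move as a unit. Phgdh, the dehydrogenase that opens it, stood at 397.7, 416.2 and 398.6 CPM in WT DMSO, at 358.2, 357.5 and 377.4 CPM at 6 h and at 175.1, 187.0 and 187.1 CPM at 24 h. The Nrf1KO libraries stood at 366.9, 374.8 and 347.2 CPM in DMSO, 394.3, 404.7 and 421.0 CPM at 6 h and 228.1, 235.6 and 252.6 CPM at 24 h. The 24 h libraries of each line thus lay below all its other libraries, and at 6 h the lines moved in opposite directions from DMSO. In WT cells Phgdh was lower at 6 h (log2 difference -0.15, SE 0.039, adjusted p = 0.0011) and at 24 h (-1.14, SE 0.041, adjusted p = 3.6e-22). In Nrf1KO cells it was higher at 6 h by 0.16 (SE 0.039, adjusted p = 0.00045), a call that scaling by library size alone did not keep (0.05, adjusted p = 0.23), and lower at 24 h by 1.52-fold (-0.60, SE 0.040, adjusted p = 3.1e-15). Of the exon stretches of Phgdh as long as a read, 22.89% occur also in 6 predicted genes that are not rows of the count table, so how reads from these were counted is not known and its level is uncertain.

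Psat1, the aminotransferase of the next step, fell further than Phgdh at 24 h in both lines. It had 733.5, 797.0 and 765.1 CPM in WT DMSO, 637.6, 660.4 and 650.5 CPM at 6 h and 292.4, 313.4 and 304.6 CPM at 24 h. The WT groups did not overlap and were lower at each later time. In Nrf1KO cells the levels were 726.2, 723.4 and 731.3 CPM in DMSO, 695.4, 700.8 and 711.0 CPM at 6 h and 372.9, 401.1 and 411.7 CPM at 24 h. There the change at 6 h did not pass the test (-0.05, 95% interval -0.12 to 0.02, adjusted p = 0.22), though it did under upper-quartile scaling (-0.12), library size alone (-0.16), no expression filter (-0.10) and without Nrf1KO 24 h replicate 1 (-0.07, adjusted p = 0.048). The fall at 24 h was 2.52-fold in WT cells (-1.33, SE 0.038, adjusted p = 7.2e-25) and 1.84-fold in Nrf1KO cells (-0.88, SE 0.037, adjusted p = 2.4e-20).

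Psph, the phosphatase of the last step, rose at 6 h in both lines. Its levels were 65.47, 71.74 and 66.76 CPM in WT DMSO, 99.04, 94.23 and 95.35 CPM at 6 h and 67.09, 66.92 and 66.57 CPM at 24 h. In the WT cells it thus rose at 6 h (0.50, SE 0.046, adjusted p = 2.3e-11) and was back within the range of DMSO at 24 h (-0.02, 95% interval -0.12 to 0.07, adjusted p = 0.65), or slightly below it under upper-quartile scaling (-0.16, adjusted p = 0.003) and library size alone (-0.13, adjusted p = 0.014). The Nrf1KO cells went from 60.41, 61.81 and 62.12 CPM in DMSO to 135.1, 137.7 and 150.0 CPM at 6 h and stayed at 93.1, 101.0 and 104.1 CPM at 24 h. No Nrf1KO library with CFZ overlapped DMSO, and the rise was 2.28-fold at 6 h (1.19, SE 0.045, adjusted p = 8.1e-21) and 1.62-fold at 24 h (0.69, SE 0.045, adjusted p = 1.9e-15). Of the exon bases of Psph, 10.44% lie opposite Cct6a, a chaperonin subunit gene. Cct6a rose by 0.83 and 0.74 in WT cells and by 0.93 and 0.80 in Nrf1KO cells (log2, 6 h and 24 h), with differences between the lines in that response of 0.10 and 0.06. The library kit marks strand, but whether the counting used it is not given in the sources used here, so the part of Cct6a reads in the Psph counts was not tested.

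Asns rose at 6 h and fell below DMSO at 24 h in both lines. It had 483.5, 505.0 and 499.3 CPM in WT DMSO, 555.8, 545.0 and 536.2 CPM at 6 h and 314.4, 315.8 and 330.5 CPM at 24 h. The Nrf1KO cells began lower, at 381.3, 386.6 and 382.3 CPM in DMSO, reached 553.9, 545.4 and 572.9 CPM at 6 h and ended at 304.6, 315.9 and 318.3 CPM at 24 h. The lines therefore differed in DMSO and overlapped at both CFZ times. The rise at 6 h was 0.14 in WT cells (SE 0.032, adjusted p = 0.00034), which library size alone (0.01, adjusted p = 0.89) and upper-quartile scaling (0.03, adjusted p = 0.43) took away, and 0.54 in Nrf1KO cells (SE 0.033, adjusted p = 1.8e-15). The fall at 24 h was 1.55-fold in WT cells (-0.63, SE 0.033, adjusted p = 9.8e-18) and 1.22-fold in Nrf1KO cells (-0.29, SE 0.033, adjusted p = 1.2e-09).

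Among the one-carbon genes Mthfd2, the mitochondrial methylenetetrahydrofolate dehydrogenase, swung most. It went from 150.8, 161.6 and 146.3 CPM in WT DMSO to 242.5, 245.2 and 248.9 CPM at 6 h and down to 93.12, 96.42 and 97.43 CPM at 24 h. The Nrf1KO cells went from 161.3, 162.2 and 162.2 CPM to 317.6, 327.7 and 321.3 CPM and down to 122.5, 124.3 and 122.3 CPM. In each line the 3 groups did not overlap, with 6 h highest and 24 h lowest. The rise at 6 h was 1.61-fold in WT cells (0.68, SE 0.034, adjusted p = 8.1e-18) and 1.99-fold in Nrf1KO cells (0.99, SE 0.034, adjusted p = 4.7e-22). Between 6 h and 24 h it fell 2.56-fold in WT cells (-1.36, SE 0.036) and 2.62-fold in Nrf1KO cells (-1.39, SE 0.035), to 1.60-fold and 1.32-fold below DMSO (adjusted p = 2.8e-17 and 5e-12).

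Shmt2, which makes glycine and the one-carbon unit from serine in mitochondria, moved less. Its levels were 258.8, 282.2 and 260.2 CPM in WT DMSO, 300.5, 292.8 and 311.8 CPM at 6 h and 242.5, 243.9 and 242.0 CPM at 24 h. In Nrf1KO cells they were 281.4, 279.5 and 260.1 CPM, then 380.1, 397.9 and 378.8 CPM and then 309.1, 309.2 and 302.0 CPM. The 24 h libraries were below DMSO in the WT cells and above DMSO in the Nrf1KO cells. In WT cells the log2 difference from DMSO was 0.18 at 6 h (SE 0.037, adjusted p = 0.00011), which did not pass under upper-quartile scaling (0.07, adjusted p = 0.11) or library size alone (0.04, adjusted p = 0.30), and -0.14 at 24 h (SE 0.038, adjusted p = 0.0014). In Nrf1KO cells it was 0.50 at 6 h (SE 0.037, adjusted p = 3e-13). At 24 h it was 0.17 (SE 0.037, adjusted p = 0.00013), but 0.06 under upper-quartile scaling (adjusted p = 0.15) and -0.02 with library size alone (adjusted p = 0.69), where the median over all genes moved by -0.18. Only 1.03% of its exon bases lie opposite another gene, Ndufa4l2, which had 17 counts in all libraries together.

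Mthfd1l, the mitochondrial formyltetrahydrofolate synthetase that releases formate, changed little at 6 h and fell further in the WT cells than in the Nrf1KO cells at 24 h. The WT cells had 195.8, 203.5 and 199.3 CPM in DMSO, 185.7, 191.0 and 193.9 CPM at 6 h and 94.03, 100.9 and 104.3 CPM at 24 h. The Nrf1KO cells had 215.8, 204.6 and 190.3 CPM, then 211.7, 211.4 and 213.1 CPM and then 170.7, 168.0 and 164.3 CPM. At 24 h no library of one line overlapped the other. The fall from DMSO was 1.99-fold in WT cells (-0.99, SE 0.041, adjusted p = 2.3e-20) and 1.21-fold in Nrf1KO cells (-0.28, SE 0.039, adjusted p = 9.9e-08). At 6 h the differences were -0.07 in WT cells (adjusted p = 0.11) and 0.06 in Nrf1KO cells (adjusted p = 0.16). The former passed as a fall under upper-quartile scaling (-0.18), library size alone (-0.20) and no expression filter (-0.10), and the latter as a rise without Nrf1KO DMSO replicate 1 (0.11, adjusted p = 0.02).

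Shmt1, the cytosolic counterpart of Shmt2, was higher in the Nrf1KO cells than in the WT cells in all 3 conditions. It stayed between 16.38 and 21.65 CPM in the 9 WT libraries and between 22.54 and 28.41 CPM in the 9 Nrf1KO libraries. The lines thus did not overlap at all. Within the Nrf1KO line the treatments overlapped, and so did DMSO and 24 h in the WT line, whereas the WT 6 h libraries lay below both. In WT cells Shmt1 fell slightly at 6 h, from 18.71, 21.2 and 20.55 CPM to 17.9, 16.38 and 18.15 CPM (-0.20, SE 0.079, adjusted p = 0.023). That call was lost without WT DMSO replicate 2 (-0.16, adjusted p = 0.10), WT DMSO replicate 3 (-0.19, adjusted p = 0.058) or WT 6 h replicate 2 (-0.15, adjusted p = 0.13). The rise from 6 h to 24 h in WT cells (0.26, SE 0.081, adjusted p = 0.0053) was lost without WT 6 h replicate 2 (0.18, adjusted p = 0.085). In Nrf1KO cells the difference at 6 h was -0.15 (adjusted p = 0.063), and it passed under upper-quartile scaling (-0.22, adjusted p = 0.0072), library size alone (-0.26, adjusted p = 0.0018) and no expression filter (-0.20, adjusted p = 0.01). It also passed, at between -0.17 and -0.21, when any one of 9 libraries was left out: WT DMSO replicate 1, WT 6 h replicate 1, 2 or 3, Nrf1KO DMSO replicate 1, Nrf1KO 6 h replicate 2, or Nrf1KO 24 h replicate 1, 2 or 3. Of its exon bases 4.74% lie opposite Smcr8, which rose by 1.53 in WT cells and 1.26 in Nrf1KO cells at 24 h, while Shmt1 changed there by 0.06 (95% interval -0.09 to 0.20) and -0.03 (-0.16 to 0.10). With library size alone the latter was -0.21 (adjusted p = 0.0044).

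The pair of proline genes fell together at 24 h but by different amounts. Aldh18a1, the pyrroline-5-carboxylate synthase, had 266.2, 279.8 and 261.7 CPM in WT DMSO, 317.6, 314.4 and 303.4 CPM at 6 h and 141.7, 146.1 and 151.4 CPM at 24 h. In Nrf1KO cells it had 204.3, 203.6 and 198.1 CPM, then 335.2, 334.7 and 348.8 CPM and then 162.6, 163.0 and 151.1 CPM. Like Asns, it began lower in the Nrf1KO cells and ended at overlapping levels. The rise at 6 h was 1.16-fold in WT cells (0.21, SE 0.035, adjusted p = 3.5e-06) and 1.68-fold in Nrf1KO cells (0.75, SE 0.036, adjusted p = 4.7e-18), and the fall at 24 h was 1.84-fold (-0.88, SE 0.037, adjusted p = 3.9e-20) and 1.27-fold (-0.34, SE 0.037, adjusted p = 3.9e-10).

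Pycr1, the reductase that completes proline, fell most of the 10. It had 34.79, 31.71 and 32.22 CPM in WT DMSO, 27.07, 24.9 and 26.59 CPM at 6 h and 4.88, 5.876 and 6.26 CPM at 24 h. The Nrf1KO cells had 26.13, 29.03 and 25.02 CPM, then 31.4, 29.73 and 28.78 CPM and then 12.96, 14.48 and 11.86 CPM. The WT groups did not overlap and were lower at each later time, whereas in the Nrf1KO cells DMSO and 6 h overlapped and 24 h lay below both. The fall at 24 h was 5.70-fold in WT cells (-2.51, SE 0.091, adjusted p = 5.2e-22) and 2.02-fold in Nrf1KO cells (-1.01, SE 0.075, adjusted p = 8e-14). At 6 h the difference was -0.33 in WT cells (SE 0.066, adjusted p = 4.5e-05). In Nrf1KO cells it was 0.18 (SE 0.068, adjusted p = 0.018), which did not pass by DESeq2 (0.16, adjusted p = 0.08), under upper-quartile scaling (0.11), library size alone (0.07) or no expression filter (0.13), nor without Nrf1KO DMSO replicate 3 (0.13, adjusted p = 0.14) or Nrf1KO 6 h replicate 1 (0.15, adjusted p = 0.11). The summed fibroblast markers fell at 24 h in both lines beside the falls described here, and the share of the most abundant genes was higher in the Nrf1KO libraries at 24 h; their part in these falls was not tested.

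**Figure D2:**
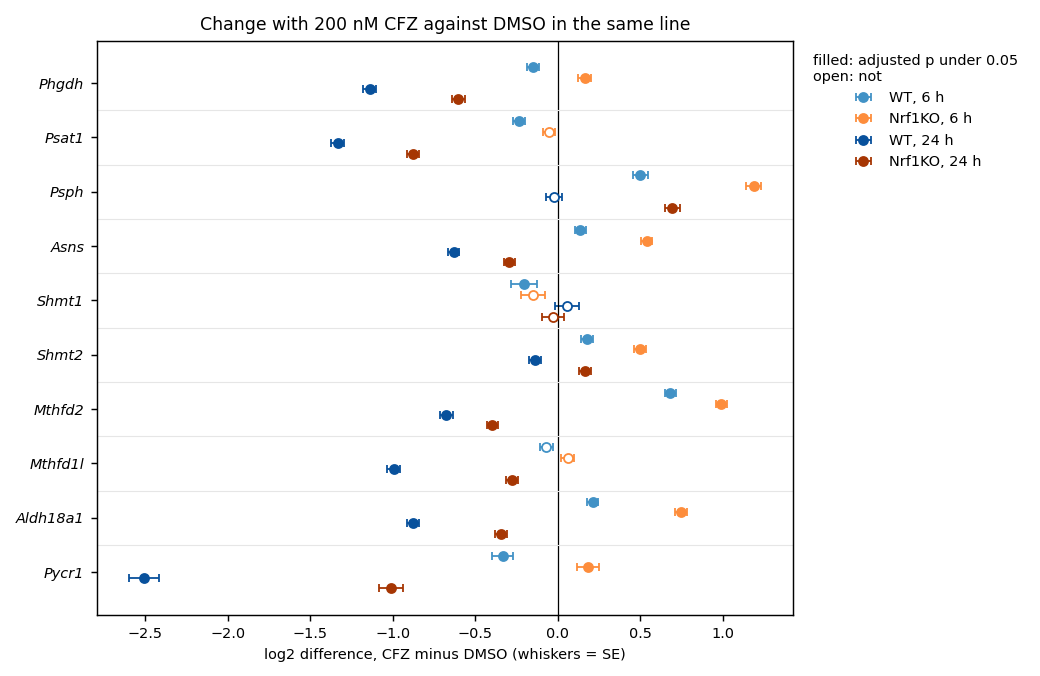
For each gene the 4 points are the edgeR log2 differences of CFZ minus DMSO in WT cells (blue) and Nrf1KO cells (orange and brown) at 6 h and 24 h; whiskers are SEs, and filled points passed an adjusted p of 0.05. Pycr1 at 24 h in WT cells is farthest to the left at -2.51 and Psph at 6 h in Nrf1KO cells farthest to the right at 1.19.

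Without CFZ the Nrf1KO cells held less of 5 of the genes than the WT cells and more of 2 (29.1% of all genes were lower and 25.7% higher). Aldh18a1 was 1.33-fold lower (-0.42, SE 0.036, adjusted p = 1.9e-11), Asns 1.29-fold lower (-0.37, SE 0.032, adjusted p = 2.9e-11) and Pycr1 1.24-fold lower (-0.31, SE 0.062, adjusted p = 7.2e-05). Phgdh (-0.16) and Psph (-0.14) were slightly lower, and the call for Psph was lost without WT DMSO replicate 2 (-0.10, adjusted p = 0.087) and with library size alone (-0.10, adjusted p = 0.081). Shmt1 was 1.30-fold higher (0.37, SE 0.068, adjusted p = 2.6e-05). Mthfd2 was higher by 0.08 (adjusted p = 0.042) with overlapping libraries, and this call was lost without WT DMSO replicate 1 (0.09, adjusted p = 0.057) or 3 (0.05, adjusted p = 0.25) and without Nrf1KO DMSO replicate 1 (0.08, adjusted p = 0.065), 2 (0.08, adjusted p = 0.082) or 3 (0.08, adjusted p = 0.086). Psat1 (-0.07, adjusted p = 0.083), Shmt2 (0.03, adjusted p = 0.47) and Mthfd1l (0.03, adjusted p = 0.60) did not pass.

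Under CFZ most of the genes stood higher in the Nrf1KO cells. At 6 h 9 of the 10 were higher in Nrf1KO than in WT cells (30.5% of all genes), none was lower by edgeR, DESeq2 or an unadjusted p (30.8% of all genes), and Asns did not pass (0.03, 95% interval -0.03 to 0.09, adjusted p = 0.44; past the threshold at 0.08 with upper-quartile scaling and at 0.10 by library size alone). Psph differed most, by 1.46-fold (0.54, SE 0.044, adjusted p = 2.7e-12), followed by Shmt1 (0.42), Mthfd2 (0.39) and Shmt2 (0.35). The smaller differences of Psat1 (0.11) and Pycr1 (0.20) were lost without single libraries: Psat1 did not pass without WT 6 h replicate 1 (0.09, adjusted p = 0.067), nor Pycr1 without WT 6 h replicate 2 (0.16, adjusted p = 0.091) or Nrf1KO 6 h replicate 1 (0.16, adjusted p = 0.094). At 24 h 9 were again higher (35.6% of all genes), none lower by either tool or unadjusted (36.4% of all genes), and Asns did not pass (-0.03, 95% interval -0.10 to 0.03, adjusted p = 0.37). Pycr1 was 2.27-fold higher (1.18, SE 0.11, adjusted p = 3.6e-11), Mthfd1l 1.67-fold (0.74, SE 0.042, adjusted p = 2.1e-16) and Psph 1.49-fold (0.57, SE 0.046, adjusted p = 1.1e-12), and Aldh18a1 differed by 0.12 with overlapping libraries (adjusted p = 0.0079).

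The response itself was compared by the interaction of line and CFZ, the Nrf1KO log2 change minus the WT log2 change. It was positive and passed for 8 genes at 6 h (19.8% of all genes higher, 18.4% lower) and for 9 at 24 h (29.7% higher, 30.0% lower), and no member was negative and called at either time by edgeR, DESeq2 or an unadjusted p. At 6 h Psph (0.69, SE 0.064, adjusted p = 2.6e-10), Aldh18a1 (0.54, SE 0.050, adjusted p = 3.2e-10) and Pycr1 (0.52, SE 0.095, adjusted p = 5.4e-05) differed most. At 24 h Pycr1 led with 1.50 (SE 0.13, adjusted p = 9.2e-12), ahead of Psph (0.72, SE 0.065, adjusted p = 5e-11) and Mthfd1l (0.72, SE 0.057, adjusted p = 2e-12). Shmt1 did not pass at 6 h (0.05, 95% interval -0.16 to 0.26) or 24 h (-0.08, 95% interval -0.28 to 0.11). Mthfd1l at 6 h (0.13, adjusted p = 0.061) passed without Nrf1KO DMSO replicate 1 (0.17, adjusted p = 0.01) and under upper-quartile scaling (0.17) and library size alone (0.15). The medians of 0.32 and 0.49 over the 10 genes stood beside 0.02 and 0.00 over all genes tested.

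Since an interaction is the difference between the lines under CFZ minus that in DMSO, it can come from either end. For Asns nearly all of it lay in the DMSO cultures (-0.37 in DMSO, 0.03 at 6 h and -0.03 at 24 h), and for Aldh18a1 most of it (-0.42, 0.12 and 0.12). For Mthfd2, Shmt2 and Mthfd1l the lines differed by 0.08 or less in DMSO, and the interaction lay in the CFZ cultures (0.39 and 0.36 for Mthfd2, 0.35 and 0.34 for Shmt2, 0.16 and 0.74 for Mthfd1l). Pycr1 had parts of both, -0.31 in the DMSO cultures and 0.20 and 1.18 under CFZ.

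**Figure D3:**
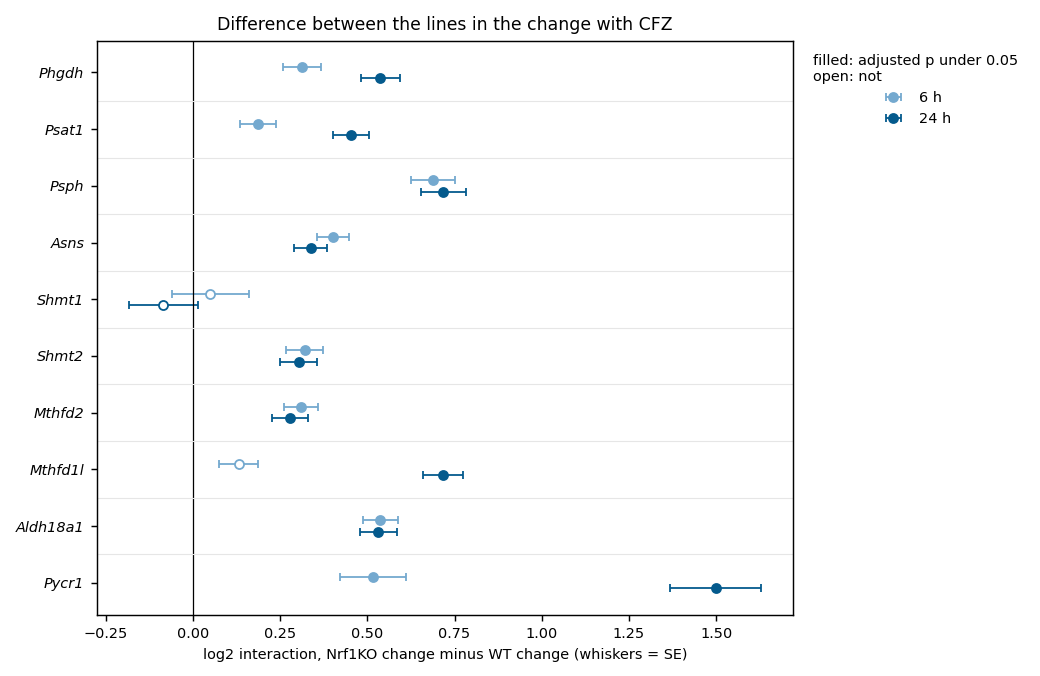
The points are the log2 interactions, Nrf1KO change with CFZ minus WT change, at 6 h (light) and 24 h (dark); whiskers are SEs, and filled points passed an adjusted p of 0.05. Pycr1 and Mthfd1l moved to the right between 6 h and 24 h (0.52 to 1.50 and 0.13 to 0.72), while Asns, Shmt2, Mthfd2 and Aldh18a1 kept nearly the same value.

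Because ratios of counts within a library need no scaling between libraries, they were used to describe how partners in a pathway shifted against each other. Psph counts per 100 Phgdh counts went from 16.8 ± 0.39 in WT DMSO to 26.4 ± 1.2 at 6 h and 36.6 ± 1.5 at 24 h (SD, n = 3), and from 17.0 ± 0.82 to 34.6 ± 0.87 and 41.6 ± 1.1 in Nrf1KO cells. This ratio of the last to the first step rose in both lines, whereas Psat1 per 100 Phgdh went down, from 189 ± 4.2 to 178 ± 6.2 and 166 ± 2.6 in WT cells and from 201 ± 9.1 to 173 ± 3.7 and 166 ± 4.0 in Nrf1KO cells. Mthfd2 per 100 Mthfd1l peaked at 6 h, at 129 ± 1.3 in WT cells against 76.6 ± 3.0 in DMSO, and at 152 ± 2.7 in Nrf1KO cells against 79.8 ± 5.2. At 24 h this ratio was 96.0 ± 2.8 in WT cells and 73.4 ± 1.4 in Nrf1KO cells. Pycr1 per 100 Aldh18a1 fell from 12.2 ± 0.87 to 8.40 ± 0.43 and 3.87 ± 0.37 in WT cells, but in Nrf1KO cells from 13.2 ± 0.90 to 8.83 ± 0.56 and 8.23 ± 0.57. The lines overlapped in this ratio in DMSO and at 6 h and did not at 24 h. The ratio of the cytosolic to the mitochondrial serine hydroxymethyltransferase gene, Shmt1 per 100 Shmt2, dipped at 6 h in both lines (7.55 ± 0.33 to 5.79 ± 0.18 in WT cells, 9.52 ± 0.79 to 6.06 ± 0.19 in Nrf1KO cells) and was 8.57 ± 0.29 and 8.33 ± 0.94 at 24 h. No test was run on the ratios.

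**Figure D4:**
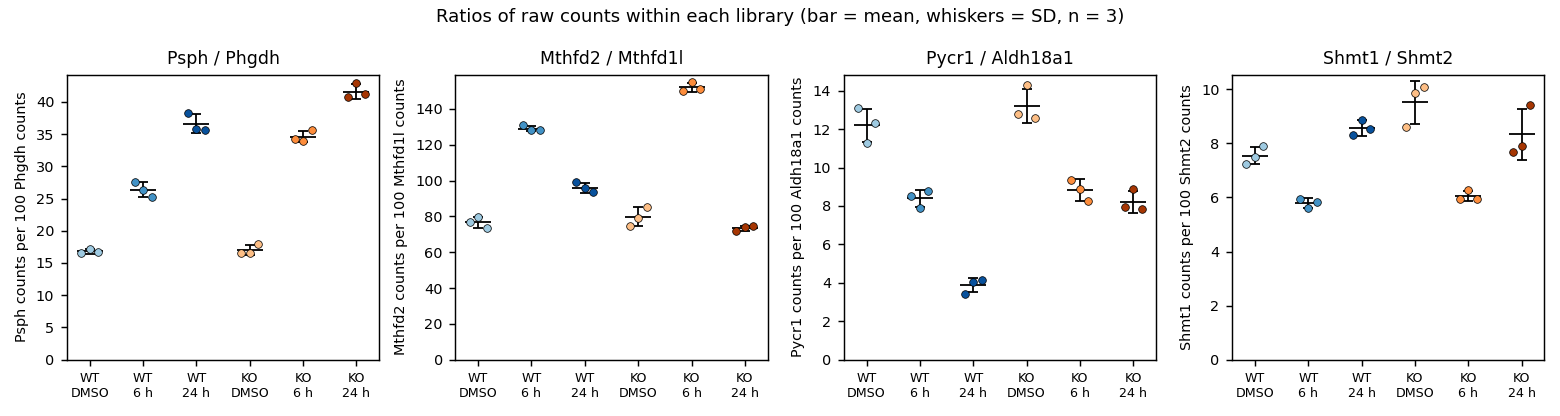
Each panel gives the raw counts of the first gene per 100 counts of the second in the 3 libraries of each group (points), with the mean (bar) and SD (whiskers) on an axis from 0. At 24 h the lines separate for Pycr1 per 100 Aldh18a1 (3.87 in WT cells, 8.23 in Nrf1KO cells) and for Mthfd2 per 100 Mthfd1l (96.0 and 73.4). They also separate then for Psph per 100 Phgdh (36.6 and 41.6). For Psph per 100 Phgdh and Mthfd2 per 100 Mthfd1l they separate at 6 h too.

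Levels of different genes were set side by side only after division by the exon length in GENCODE M21, which need not be the annotation used for the counts. In WT DMSO Asns (181.3 ± 4.09 CPM per kb, SD, n = 3), Psat1 (179.9 ± 7.47) and Phgdh (162.6 ± 4.19) led. Asns and Psat1 overlapped, and Shmt2 followed at 85.90 ± 4.22. Aldh18a1 (66.11), Mthfd1l (44.99) and Mthfd2 (43.85) came next, the latter pair overlapping, and Psph (15.71), Pycr1 (8.363) and Shmt1 (5.190) were lowest. At 24 h of CFZ in WT cells Asns still led at 117.1 CPM per kb, Shmt2 (78.09) had passed Phgdh (73.63) and Psat1 (71.33), and Pycr1 (1.441) had dropped below Shmt1. Between the lowest and the highest of the 6 group means a gene's CPM ranged 1.49-fold for Shmt1, 1.59-fold for Shmt2, 1.78-fold for Asns, between 2.13-fold and 2.52-fold for Mthfd1l, Phgdh, Psph, Aldh18a1 and Psat1, 3.37-fold for Mthfd2 and 5.80-fold for Pycr1.

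The neighbouring pathways were followed in 66 further genes of 7 lists, of which 56 were tested. Aldh1l1, Ftcd, Gldc, Sds, Prodh, Arg1, Arg2, Aspg, Cbs and Bhmt did not pass the expression filter. In WT cells at 24 h 26 of the 56 were higher and 26 lower, with a median of -0.05 beside -0.78 for the 10 synthesis genes. Of all genes tested, 43.2% were higher and 40.5% lower in this comparison. The medians of the 7 lists ran from -0.72 for the methionine cycle and transsulphuration genes to 0.55 for the other proline and ornithine genes. The other folate enzymes and carriers split, 6 higher and 7 lower of 14. Among them Tyms, the thymidylate synthase, fell by 1.17 (SE 0.070, adjusted p = 3e-16). Mthfd1, the cytosolic trifunctional enzyme, fell by 0.55 in WT cells and by 0.95 in Nrf1KO cells. Its interaction at 24 h was -0.40 (SE 0.075, adjusted p = 2.8e-05), opposite in sign to those of the mitochondrial Mthfd2 (0.28) and Mthfd1l (0.72).

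Among the 6 other proline and ornithine genes tested, 5 were higher and 1 lower in WT cells at 24 h (43.2% and 40.5% of all genes). Pycrl, a further pyrroline-5-carboxylate reductase, went the opposite way to Pycr1. It rose from 23.65 ± 0.643 CPM in WT DMSO to 41.13 ± 2.52 at 6 h and 60.69 ± 5.01 at 24 h (SD, n = 3), and in Nrf1KO cells it stood at 27.81 ± 0.605, 27.84 ± 1.69 and 29.95 ± 1.42 CPM. Its interactions were -0.81 (SE 0.092, adjusted p = 1.7e-08) at 6 h and -1.27 (SE 0.085, adjusted p = 4.3e-14) at 24 h, the most negative among the 56.

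Of the 6 tested genes of glycine cleavage and serine breakdown 3 were higher and 3 lower in WT cells at 24 h, and 1 was higher and 4 lower in Nrf1KO cells. The shares over all genes, for this list and the next ones, were 43.2% higher and 40.5% lower in WT cells at 24 h. In Nrf1KO cells they were 44.4% and 41.1%. Gcat, which acts in threonine breakdown to glycine, changed at that time by -1.76 in WT cells and -1.84 in Nrf1KO cells, and Srr, the serine racemase, had an interaction of -0.83 (SE 0.089, adjusted p = 2e-09). All 4 tested methionine cycle and transsulphuration genes were lower in WT cells at 24 h (median -0.72), and 3 were lower and 1 higher in Nrf1KO cells. Of the 6 purine synthesis genes that use formyl-folate or glycine, or act beside those steps, 1 was higher and 3 lower in WT cells at 24 h (median -0.11), and 1 was higher and 2 lower in Nrf1KO cells (median -0.01). Among the 8 tested enzymes of aspartate, alanine, glutamate and glutamine 4 were higher and 4 lower in WT cells at 24 h. Gpt2, the mitochondrial alanine aminotransferase, had positive interactions, as most of the synthesis genes did (1.17, SE 0.052, adjusted p = 6.3e-18, and 1.13, SE 0.056, adjusted p = 3.1e-17). It went from 140.8 ± 5.41 CPM in WT DMSO to 187.6 ± 5.59 at 6 h and 71.60 ± 3.32 at 24 h. In Nrf1KO cells it went from 94.93 ± 2.94 CPM to 286.1 ± 3.99 and 106.2 ± 2.32. There it was above DMSO at 24 h (0.16, adjusted p = 0.0004), where 7 of the 10 synthesis genes were below. In DMSO the Nrf1KO cells differed from the WT cells by -0.57 (SE 0.038, adjusted p = 6.1e-14).

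The mRNA of Atf4 stayed above DMSO while most of the enzymes fell below it. It was 557.6 ± 14.2 CPM in WT DMSO, 816.2 ± 3.13 at 6 h and 733.3 ± 10.5 at 24 h, and 640.3 ± 20.5, 968.6 ± 20.5 and 818.8 ± 31.1 CPM in Nrf1KO cells (SD, n = 3). It was therefore still above DMSO at 24 h in both lines (0.40 and 0.35 on the log2 scale, adjusted p = 2.8e-12 and 2.8e-11), at a time when 8 (WT) and 7 (Nrf1KO) of the 10 genes lay below DMSO. Its interaction was 0.05 (SE 0.048, adjusted p = 0.48) at 6 h and -0.04 (SE 0.048, adjusted p = 0.48) at 24 h. Within the list of transcription factors and ATF4-linked feedback genes 10 of 12 were higher and 2 lower at 6 h and 7 higher and 4 lower at 24 h in WT cells. There 35.6% and 43.2% of all genes were higher and 36.2% and 40.5% lower. In Nrf1KO cells 9 of the 12 were higher and 1 lower at 6 h and 8 higher and 4 lower at 24 h (34.5% and 44.4% of all genes higher, 35.0% and 41.1% lower). Ddit3, which encodes CHOP, rose by 1.34 and 1.47 in WT cells and by 2.44 and 3.28 in Nrf1KO cells. Trib3, a pseudokinase that restrains ATF4, was lower in Nrf1KO than in WT DMSO (-1.15, SE 0.039) and had interactions of 1.54 and 1.20. It changed at 6 h and 24 h by 0.52 and -0.77 in WT cells and by 2.06 and 0.43 in Nrf1KO cells. Under CFZ the Nrf1KO cells differed from the WT cells by 0.39 at 6 h and by 0.05 at 24 h (adjusted p = 3.3e-11 and 0.27). Atf5, a further bZIP factor, changed at 24 h by -1.91 in WT cells and -2.23 in Nrf1KO cells. Myc rose at 6 h by 1.21 and 1.40 and was above DMSO at 24 h by 0.55 and 0.18. Protein levels and ATF4 translation were not measured in these libraries.

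**Figure D5:**
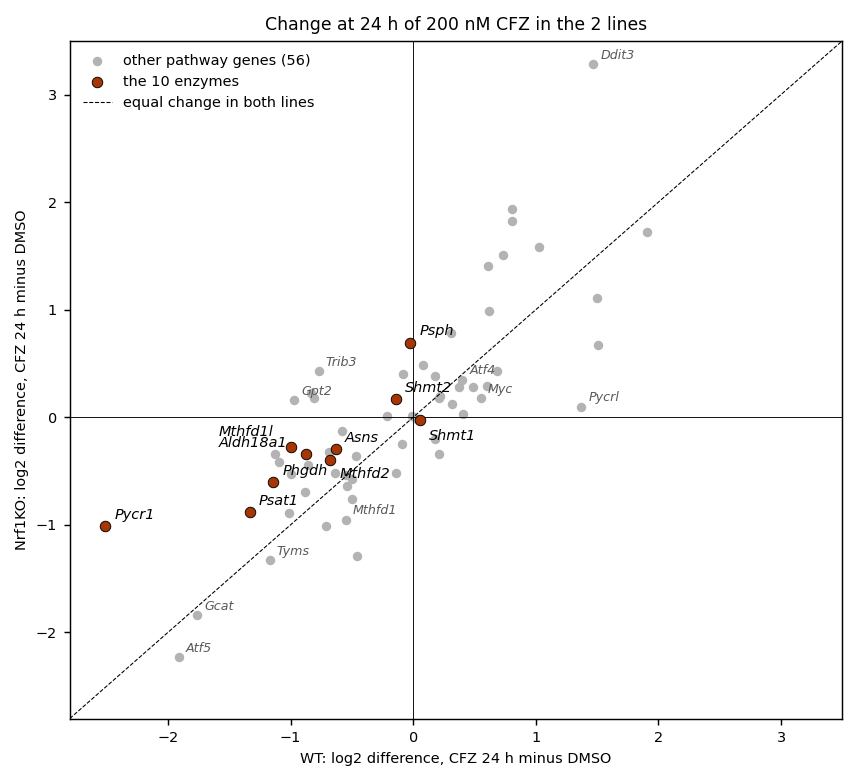
Each point is 1 gene, with its log2 difference of 24 h CFZ minus DMSO in WT cells (x) and in Nrf1KO cells (y); the 10 synthesis genes are filled, the 56 other tested pathway genes are grey, and the dashed line marks equal change. Of the 10, all but Shmt1 lie above the line, Pycr1 farthest to the left (-2.51 and -1.01), while Pycrl (1.37 and 0.10) lies below it.

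Across the 18 libraries the closest genes to each member were taken by the Pearson correlation of log2 CPM among the 10250 tested genes outside the members whose mean count was 50 or more, as a description, since the libraries share 6 groups. Outside the members Aldh18a1 was closest to Slc7a5 (r = 0.996), a subunit of a large neutral amino acid transporter, and to Pcgf5 (0.976), and Asns also to Slc7a5 (0.980) and to Yars (0.978), a tyrosyl-tRNA synthetase. Among the members the pair most alike was Asns and Aldh18a1 (0.989), closer than Yars to Asns or Pcgf5 to Aldh18a1, followed by Psat1 and Phgdh (0.986). Phgdh and Pycr1 had the same closest gene, Pck2 (0.988 for both), the mitochondrial phosphoenolpyruvate carboxykinase, and then Tmem109 (0.980) and Mta1 (0.984). Psat1 was closest to the extracellular matrix genes Mmp2 and Fbln5 (0.989 for both), which are expressed by fibroblasts. Mthfd2 was closest to Maged1 (0.994) and Hif1a (0.981), Mthfd1l to Asph (0.982) and Dlk1 (0.975), Psph to Fam212b (0.982) and Dlg1 (0.977), and Shmt2 to Phlda3 (0.977) and Fbxl5 (0.961). Shmt1 was closest to Sema6b (0.950) and 1110004E09Rik (0.927), and of each of the other 9 it was the least similar member, from r = -0.463 with Asns to 0.198 with Shmt2.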

How the data were processed

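RNA-sequencing covered 18 NIH-3T3 libraries, 3 in each of 6 groups, grouped and numbered by the sample labels. The authors made stranded mRNA libraries, sequenced paired reads and used RNA Express, which joins STAR with DESeq2. The deposited values are raw counts, whole reads on each of 23420 gene symbols (6577 without a count), with no normalization. Genome build, annotation, versions and strand use in counting are not given in the sources used here, so reads of overlapping or near-identical genes may be split in unknown ways.

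The counts were tested here with edgeR 4.0.16 (R 4.3.3): filterByExpr (at least 10 counts, 15 in total), TMM scaling, 1 quasi-likelihood model of the 6 groups, and Benjamini-Hochberg adjustment over 11762 genes (threshold 0.05, no minimum fold) in 11 comparisons. SE is the log2 difference divided by the square root of F, and 95% intervals assume normal errors. Alternatives were DESeq2 1.42.0, upper-quartile scaling (edgeR), library size alone, no filter, a mean count of at least 10, only the groups compared, a block for the replicate number and leaving out single libraries. The common biological coefficient of variation was 3.131%, and replicates differed beyond sampling noise (chi-square per degree of freedom 1.44 to 8.47). The procedure was also run on simulated counts in which a limited set of genes changed in a single group. Far more genes passed in these data, so that run does not check the scaling used here. Coordinates, exon lengths and shared sequence came from GENCODE M21 on GRCm38 by symbol, promoter windows from RefSeq.

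The members and gene lists were chosen with earlier results of these data known. The genes named outside the members are, per comparison, at most the 3 list genes with the largest rise and fall past the threshold, with Atf4, Myc, Mthfd1, untested list genes, the 2 closest genes by correlation (prior count 2), markers and genes overlapping members. Some genes this rule names are not reported here.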

Additional observations from a re-analysis of the deposited data

Results flagged for a closer look

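The results listed here were marked because the response to CFZ differed between the WT and Nrf1KO lines by a test of the difference itself (edgeR's interaction term, Benjamini-Hochberg adjusted over 11762 genes). At 6 h the log2 interactions that passed were 0.69 for Psph, 0.54 for Aldh18a1, 0.52 for Pycr1, 0.40 for Asns, 0.32 for Shmt2, 0.31 for Phgdh, 0.31 for Mthfd2 and 0.19 for Psat1. At 24 h they were 1.50 for Pycr1, 0.72 for Psph, 0.72 for Mthfd1l, 0.54 for Phgdh, 0.53 for Aldh18a1, 0.45 for Psat1, 0.34 for Asns, 0.30 for Shmt2 and 0.28 for Mthfd2. In all of them the Nrf1KO change was the more positive. No test for single outlying libraries was run on the groups of 3.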

How the results depend on the processing

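Of 110 member results (10 genes in 11 comparisons), 741 of 770 values under the 7 alternatives kept direction and side of the threshold, 11 lost the call, 17 gained one and 1 turned sign. The one that turned was Shmt2 in Nrf1KO cells at 24 h with library size alone (-0.02 in place of 0.17). Upper-quartile scaling and library size alone each gave 3 members higher in WT cells at 6 h in place of 5, 2 lower in Nrf1KO cells at 6 h in place of 0 and 1 higher in Nrf1KO cells at 24 h in place of 2, and no expression filter also gave 2 lower in Nrf1KO cells at 6 h. These scalings moved the median over all genes by -0.13 (library size alone) and -0.11 (upper quartile) in WT cells at 6 h, by -0.10 and -0.13 at 24 h, and by -0.11 and -0.07 in Nrf1KO cells at 6 h and -0.18 and -0.11 at 24 h. With library size alone 3087 genes were higher and 5623 lower in WT cells at 6 h in place of 4190 and 4262, 3036 and 5298 in Nrf1KO cells at 6 h in place of 4057 and 4114, 4175 and 5857 in Nrf1KO cells at 24 h in place of 5226 and 4829, 4384 and 2829 between the lines at 6 h in place of 3593 and 3621, and 3635 and 2663 in DMSO in place of 3017 and 3419. With upper-quartile scaling 3274 were higher and 5373 lower in WT cells at 6 h. The cause was not tested.

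With each library left out in turn, 1953 of 1980 values kept direction and call, 15 lost the call, 12 gained one and none turned sign. The number of members higher in Nrf1KO than in WT DMSO ran from 1 to 2, the number rising from 6 h to 24 h in WT cells from 0 to 1, and the number lower in Nrf1KO cells at 6 h from 0 to 2. The count of 8 lower members in WT cells at 24 h and of 9 positive interactions at 24 h was the same in all 18.

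The deviations of the 45 same-numbered pairs of libraries correlated at 0.0136 on average (-0.0494 to 0.0972). Whether same-numbered cultures were handled together is not given in the labels, and these correlations cannot settle it. With the replicate block, Psat1 in Nrf1KO against WT DMSO passed (-0.07, adjusted p = 0.039), and no other member call changed. Pycr1, with 48 counts or more per library, and Shmt1 had the largest errors.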
